A study of Mus musculus with 18 samples.

Results

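The oocyte and the cumulus cells that surround it were compared in mice kept in filtered air. Members were the 6 filtered-air libraries of these cells, of 18 libraries in the series: 3 of oocytes and 3 of cumulus cells, all from C57BL/6 mice. All 52550 genes of the deposited table were considered, and 6745 had enough signal to be tested. The series also holds oocyte and cumulus libraries from mice exposed to fine particulate matter (PM2.5), with 3 libraries of each, which serve here as a repeat of the same comparison, and 6 blastocyst libraries. The labels give the strain, the tissue and the air group. They do not state the meiotic stage of the oocytes, the age of the mice, any hormone treatment, or how many cells or animals were pooled. Whether replicate libraries stem from different animals is likewise not stated, so every p-value reflects library-to-library spread only, and part of that may be technical.

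In the follicle, the oocyte metabolizes glucose poorly on its own and is coupled to its cumulus cells, which reach it through the zona pellucida by projections that end in gap junctions. The oocyte secretes growth factors of the TGF-beta superfamily, GDF9 and BMP15, which direct cumulus cells to express glycolytic and cholesterol-synthesis enzymes and to build the hyaluronan matrix that expands around ovulation. Cumulus cells in turn pass on pyruvate, amino acids and sterols, keep the oocyte in meiotic arrest through cyclic GMP, and relay the luteinizing hormone signal through EGF-like ligands. A full-grown oocyte also stores translationally silent mRNA and proteins for the first days of development, before the embryonic genome is active.

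Values are log2 of a normalized level plus 1 as deposited, called the level here. A difference is the mean level of oocytes minus that of cumulus cells, so it is positive where oocytes were higher. Errors of a mean are SD with n = 3, and the error of a difference is the limma standard error. A gene was called where limma's treat test, adjusted over all 6745 genes, showed a difference beyond 2-fold at an adjusted p under 0.05. Read depth is unknown because no counts were used here. The library sums of the unlogged level were 285842 to 294391 in oocytes and 436136 to 449465 in cumulus cells, and 16426 to 17740 genes were above 0 per library. Libraries of the same cell type correlated at Pearson r of 0.970 to 0.981 in oocytes and 0.969 to 0.970 in cumulus cells over the tested genes, whereas r between the cell types lay between -0.143 and -0.0947. Oocyte replicate 3 stood slightly apart: 110 tested genes were at least 1 above both other oocyte libraries there, against 16 in replicate 1 and 22 in replicate 2.

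The markers fitted the labels. Gdf9 had levels of 10.84, 10.9 and 11.52 in oocytes and 3.16, 3.56 and 3.56 in cumulus cells, and Oosp1, a secreted protein of the oocyte, had 11.17, 11.11 and 11.28 in oocytes and 3.11, 3.29 and 3.59 in cumulus cells. Inha, the inhibin alpha subunit, had 0.13, 0.29 and 0.88 in oocytes and 7.62, 7.83 and 7.85 in cumulus cells. Fst, the activin-binding protein follistatin, had 0.19, 0.57 and 0.34 in oocytes and 7.22, 7.49 and 7.12 in cumulus cells. For each of these genes the groups lay far apart without overlap. Of 15 listed oocyte markers, 13 were tested and all 13 were called higher in oocytes. A marker near 0 in 1 cell type passed the filter only if it was high in the other. With a mean level of at least 2 in both cell types were 5 of the 13, all called higher in oocytes. Of the tested cumulus markers below, 2 had such means, and 1 of them was called higher in cumulus cells. Of 18 listed cumulus and granulosa markers, 9 were tested, 7 were called higher in cumulus cells, and Cyp19a1, aromatase, was called higher in oocytes (3.88 ± 0.13 in oocytes and 1.61 ± 0.61 in cumulus cells). Amh, which granulosa cells of small follicles express, was listed at 0 in all 6 libraries.

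In all, 4251 of 6745 tested genes were called beyond 2-fold (63%), 1911 of them higher in oocytes (28.3%) and 2340 higher in cumulus cells (34.7%). These shares are the background for every list below. A gene near 0 in 1 cell type had to reach about 4 in the other to pass the filter, so part of the calls is fixed by the filter and the counts are descriptions. Among the 3744 genes with a mean level of at least 2 in both cell types, 888 were called higher in oocytes and 733 higher in cumulus cells, which is 43.3% of them. At any size of difference, limma called 5879 genes (87.2%), 2761 higher in oocytes (40.9%) and 3118 higher in cumulus cells (46.2%), and the libraries of the cell types did not overlap for 5954 genes (88.3%). The median difference over all tested genes was -0.19, with quartiles of -2.45 and 1.72. Rescaling the libraries moved that median, by 0.29 with median centring, 0.31 with quantile normalization and 0.49 with equal sums outside mitochondrial and hemoglobin genes, so differences of less than about this size have no firm direction. None of the 4251 calls changed sign under any of the rescalings. Fewer or larger cells cannot be told apart from more or less RNA per cell, since the values are normalized levels and cell numbers are not stated.

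**Figure D1:**
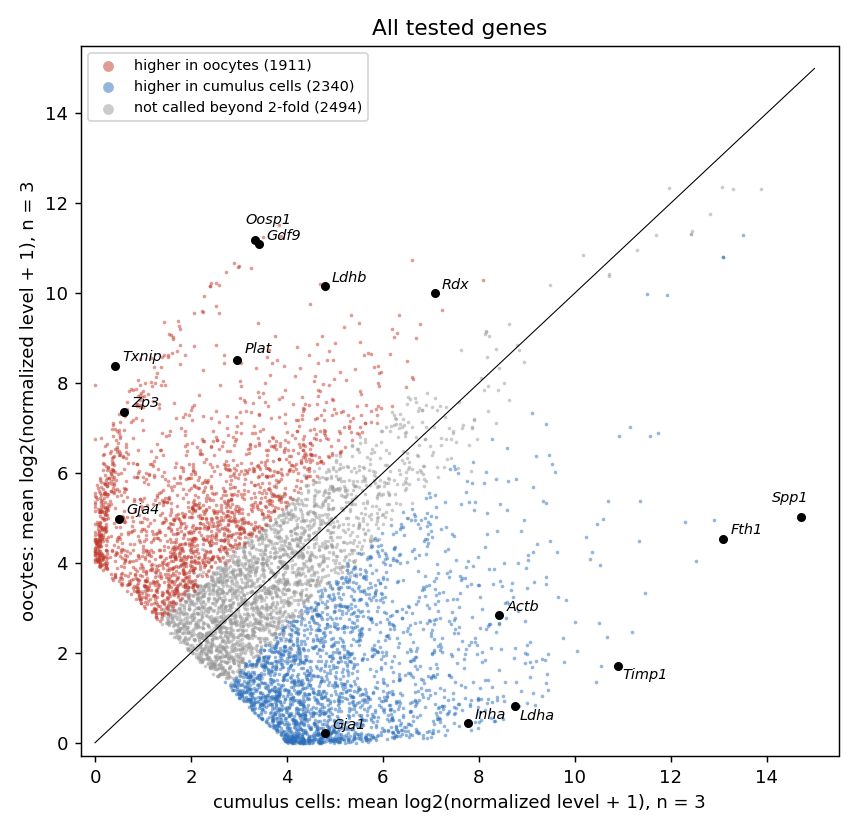
Mean level of each tested gene in oocytes (vertical axis) against cumulus cells (horizontal axis), both log2(normalized level + 1) with n = 3. Red points are the 1911 genes called higher in oocytes and blue points the 2340 called higher in cumulus cells, gray points were not called, and the line marks equal levels. Named genes far from the line include Oosp1 and Gdf9 on the oocyte side and Spp1 and Timp1 on the cumulus side.

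The upstream sequences of strongly divided genes are shown because genes of each cell type are commonly discussed through the factors that bind there. A promoter sequence from RefSeq (GRCm38.p6) was available here for 4830 of the tested genes. The 250 bases before the start are printed 5′ to 3′ on the gene's strand. In the first pair capitals mark the E-box, CANNTG, the letters bound by basic helix-loop-helix factors such as FIGLA, which drives zona genes in growing oocytes:
Zp3, chr5:135979855-135980104, plus strand: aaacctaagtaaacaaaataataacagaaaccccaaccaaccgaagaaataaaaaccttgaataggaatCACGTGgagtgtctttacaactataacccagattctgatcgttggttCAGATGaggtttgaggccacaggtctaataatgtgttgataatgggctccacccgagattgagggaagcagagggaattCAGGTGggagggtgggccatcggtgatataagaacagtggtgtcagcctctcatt
Oosp1, chr19:11691052-11691301, minus strand: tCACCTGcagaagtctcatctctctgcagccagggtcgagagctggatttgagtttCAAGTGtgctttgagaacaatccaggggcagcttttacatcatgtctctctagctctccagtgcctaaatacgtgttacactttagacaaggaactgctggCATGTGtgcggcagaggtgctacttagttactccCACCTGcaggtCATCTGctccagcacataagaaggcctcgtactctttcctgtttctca
In genes high in cumulus cells capitals mark AACCACA, bound by RUNX factors, in Spp1 and Ptgs2, and TGANTCA, the AP-1 site of FOS and JUN proteins, in Tnfaip6:
Spp1, chr5:104434861-104435110, plus strand: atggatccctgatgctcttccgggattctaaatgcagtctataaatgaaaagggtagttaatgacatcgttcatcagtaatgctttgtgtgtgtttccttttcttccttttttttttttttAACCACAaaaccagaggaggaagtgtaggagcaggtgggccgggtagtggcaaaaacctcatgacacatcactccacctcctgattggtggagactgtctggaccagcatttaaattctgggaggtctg
Ptgs2, chr1:150099781-150100030, plus strand: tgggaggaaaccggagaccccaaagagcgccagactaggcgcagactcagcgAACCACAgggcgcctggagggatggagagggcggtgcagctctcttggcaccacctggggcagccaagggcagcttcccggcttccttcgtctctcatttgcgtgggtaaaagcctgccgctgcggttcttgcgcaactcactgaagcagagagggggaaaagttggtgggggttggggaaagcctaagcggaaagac
Tnfaip6, chr2:52037863-52038112, plus strand: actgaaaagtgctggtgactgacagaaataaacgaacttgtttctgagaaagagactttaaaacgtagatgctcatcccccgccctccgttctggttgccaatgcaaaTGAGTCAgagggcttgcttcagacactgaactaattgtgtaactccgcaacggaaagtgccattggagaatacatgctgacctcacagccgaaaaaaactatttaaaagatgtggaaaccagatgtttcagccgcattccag
Zp3 held 3 E-boxes and Oosp1 held 5. E-boxes, not marked there, also stood in the promoters of the cumulus genes, 1 in Spp1, 2 in Ptgs2 and 2 in Tnfaip6, and Tnfaip6 held 1 TAATTG as well. Searched on both strands, CANNTG occurred in 57.5% of 1389 promoters of oocyte-called genes, 56.3% of 1570 promoters of cumulus-called genes and 66.1% of all 27025 listed promoters. The shares for AACCACA were 2.81% of promoters of oocyte-called genes, 3.25% of promoters of cumulus-called genes and 4.46% of all promoters. For TGANTCA they were 4.03% in oocyte-called genes, 4.33% in cumulus-called genes and 6.85% in all promoters. TAATTG, the letters bound by the oocyte homeobox protein NOBOX, occurred in 5.33% of oocyte-called, 3.63% of cumulus-called and 7.33% of all promoters. Among the 4830 tested genes the shares were 54.9% for CANNTG, 3.08% for AACCACA, 3.73% for TGANTCA and 4.33% for TAATTG. A match is a run of letters and no shown binding site.

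The 12 named protein-coding genes with the largest differences toward oocytes were Txnip, Oosp1, Bmp15, Btg4, Trim61, Bcl2l10, Dppa3, Khdc1b, Dazl, Obox2, Gdf9 and Mos. Txnip, an arrestin-like protein that binds thioredoxin and restrains glucose uptake, lay at 8.36, 8.49 and 8.29 in oocytes and 0.28, 0.42 and 0.56 in cumulus cells. Its difference of 7.96 ± 0.12 (adjusted p = 2.2e-08) was the largest of this set. Bmp15, the X-linked partner of GDF9, lay at 9.99, 10.004 and 10.5 in oocytes and 2.35, 2.2 and 2.61 in cumulus cells. Btg4, the adaptor that brings the CCR4-NOT deadenylase to maternal mRNA, lay at 10.12, 10.2 and 10.19 in oocytes and 2.17, 2.15 and 2.86 in cumulus cells. Dppa3, which protects the maternal genome from demethylation in the zygote, had 10.46 ± 0.197 in oocytes and 2.73 ± 0.33 in cumulus cells. Mos, the kinase that starts the MAP kinase cascade of metaphase arrest, had 9.39 ± 0.19 in oocytes and 1.74 ± 0.04 in cumulus cells. The 3 oocyte libraries lay above the 3 cumulus libraries by more than 6 units for every gene of the set.

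The 12 with the largest differences toward cumulus cells were Spp1, Timp1, Ephx2, Rgcc, Tceal9, Fth1, Tmem86a, Rpl23a, S100a11, Ier3, Hsd3b1 and Bex4. Spp1, the secreted phosphoprotein osteopontin, lay at 4.93, 4.78 and 5.32 in oocytes and 14.76, 14.79 and 14.6 in cumulus cells, a difference of -9.7 ± 0.16 (adjusted p = 2.3e-08). It had the highest level of all genes in cumulus cells on the deposited scale, 5.51% to 6.49% of the summed level per library, against 0.00909% to 0.0136% in oocytes. Timp1, an inhibitor of matrix metalloproteinases, lay at 1.7, 1.58 and 1.87 in oocytes and 11.12, 10.84 and 10.74 in cumulus cells. Fth1, the ferritin heavy chain that stores iron, lay at 4.39, 4.5 and 4.71 in oocytes and 13.34, 12.999 and 12.96 in cumulus cells. Ephx2, a soluble epoxide hydrolase, had 1.35 ± 0.29 in oocytes and 10.45 ± 0.076 in cumulus cells. Hsd3b1, which makes progesterone from pregnenolone, had 0.89 ± 0.29 in oocytes and 9.01 ± 0.19 in cumulus cells. The 3 oocyte libraries lay below the 3 cumulus libraries by more than 7 units for each of the 12 genes.

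**Figure D2:**
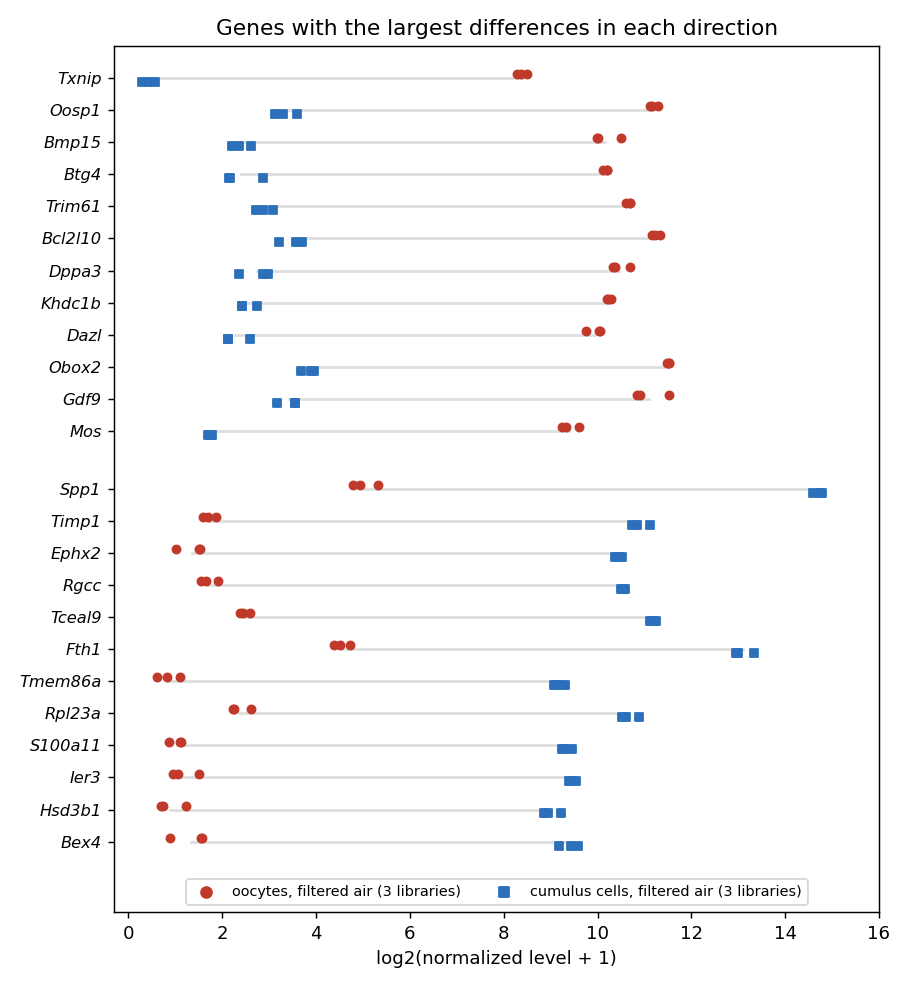
Level in each library, log2(normalized level + 1), of the 12 named genes with the largest difference toward oocytes (upper block) and the 12 toward cumulus cells (lower block). Red circles are the 3 oocyte libraries and blue squares the 3 cumulus libraries, and gray lines join the group means. In all 24 genes the libraries of the cell types are wide apart, with Spp1 at 14.60 to 14.79 in cumulus cells against 4.78 to 5.32 in oocytes.

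Genes for the oocyte's own signals were largely oocyte transcripts. Of 8 listed ligands and surface molecules of the oocyte 6 were tested, of which 5 were called higher in oocytes and none higher in cumulus cells, with a median difference of 5.61. Kit, the receptor for the granulosa-cell Kit ligand, lay at 5.82, 5.61 and 5.88 in oocytes and 0.47, 0.26 and 0.45 in cumulus cells. Jag1, a NOTCH ligand, lay at 6.85, 6.78 and 6.88 in oocytes and 1.72, 1.46 and 1.42 in cumulus cells, and Tgfb2 at 6.64, 6.54 and 6.26 in oocytes and 0.47, 0.67 and 0.78 in cumulus cells. The sixth, Bmp6, was closer between the cells, with 5.28 ± 0.1 in oocytes and 4.58 ± 0.079 in cumulus cells, and was not called, though with equal sums it was called higher in oocytes. Fgf8, which works with BMP15 to raise cumulus glycolysis, was below the filter, with 1.49 ± 0.13 in oocytes and 0 in all cumulus libraries. The Kit ligand Kitl itself was too low to be tested (1.68 ± 0.52 in oocytes and 1.77 ± 0.44 in cumulus cells).

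Of 25 listed receptors, SMADs and target genes 16 were tested, of which 4 were called higher in oocytes and 6 higher in cumulus cells. These are 25% and 37.5% of the tested members, close to the background of 28.3% and 34.7%. The median difference was -0.28, and with equal library sums it was 0.18, with 6 calls toward oocytes and 5 toward cumulus cells. Tgfbr1, the type I receptor that transmits the GDF9 signal, lay at 1.78, 1.47 and 2.98 in oocytes and 7.6, 7.69 and 7.9 in cumulus cells. Id1, Id2 and Id3, which are switched on by BMP signals through SMAD1 and SMAD5, were all called higher in cumulus cells. Id2 lay at 0.62, 0.43 and 0.34 in oocytes and 7.88, 8.04 and 8.12 in cumulus cells, and Smad5 was called in the same direction. In the other direction, Bmpr1b, a type I receptor for BMP15, lay at 6.29, 6.35 and 6.1 in oocytes and 3.35, 3.46 and 3.59 in cumulus cells. Smad3, which carries activin and GDF9 signals, lay at 5.71, 5.67 and 5.71 in oocytes and 3.23, 2.8 and 2.62 in cumulus cells, and Fgfr2 and the co-receptor Tgfbr3 were also called higher in oocytes. Bmpr2, the type II receptor that both ligands share, was not called (3.74 ± 0.13 in oocytes and 4.27 ± 0.27 in cumulus cells). Smad7, a feedback inhibitor of this pathway, was listed at 0 in the oocyte libraries and lay at 2.2, 2.18 and 1.77 in cumulus cells, below the filter.

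Among 11 tested of 13 listed zona and fertilization genes, 7 were called higher in oocytes and 3 higher in cumulus cells. Zp3, a structural glycoprotein of the egg coat, lay at 7.19, 7.13 and 7.78 in oocytes and 0.297, 0.56 and 0.99 in cumulus cells. Zp2 lay at 4.99, 5.11 and 6.61 in oocytes and 0.15, 0.31 and 0.19 in cumulus cells, and Zp1, which crosslinks zona filaments, at 4.6, 4.78 and 6.26 in oocytes and 0, 0 and 0.29 in cumulus cells. For both Zp1 and Zp2 oocyte replicate 3 was the highest by more than 1, while all oocyte libraries stayed above all cumulus libraries. Astl, the cortical granule protease ovastacin that cuts ZP2 after fertilization, lay at 5.68, 5.63 and 6.34 in oocytes and 0.14, 0.12 and 0.46 in cumulus cells. The genes that went the other way were Cd9, Cd81 and Fetub. Cd9 encodes the tetraspanin that eggs need for sperm fusion, and it lay at 3.05, 3.2 and 3.75 in oocytes and 6.16, 6.03 and 5.7 in cumulus cells. Cd81 lay at 0.64, 0.74 and 1.37 in oocytes and 5.13, 4.96 and 5.38 in cumulus cells. Fetub, fetuin B, a plasma protein of the liver that holds ovastacin in check, lay at 2.33, 2.74 and 3.71 in oocytes and 5.01, 5.23 and 5.23 in cumulus cells. Izumo1r, the sperm receptor JUNO, was below the filter, at 2.51, 2.69 and 2.62 in oocytes and 0 in all cumulus libraries.

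Every tested gene of the lists for oocyte transcription factors (7 of 7, with 14 listed) and for the subcortical maternal complex with NLRP proteins (13 of 13, with 15 listed) was called higher in oocytes, with median differences of 6.05 and 5.98. These lists hold genes chosen for oocytes, so the counts are descriptions. Obox2, a homeobox gene of the oocyte, lay at 11.49, 11.53 and 11.51 in oocytes and 3.9, 3.68 and 3.96 in cumulus cells. Sall4, a zinc finger factor of germ and stem cells, had 6.78 ± 0.088 in oocytes and 0.52 ± 0.15 in cumulus cells. Taf4b, a gonadal TFIID subunit, had the smallest difference, 1.67 ± 0.15 (adjusted p = 0.003). Nobox lay at 3.31, 3.39 and 4.48 and Figla at 1.26, 0.76 and 1.31 in oocytes, and both were listed at 0 in every cumulus library and were too low to be tested. In the maternal complex, Nlrp5 lay at 5.71, 5.73 and 6.74 in oocytes and 0.36, 0.29 and 0.45 in cumulus cells, Ooep at 6.1, 6.19 and 7.15 in oocytes and 0.43, 0.43 and 0.64 in cumulus cells, and Khdc3 at 3.43, 3.62 and 5.37 in oocytes and 0.196, 0.22 and 0.099 in cumulus cells. In all of them oocyte replicate 3 stood above the other oocyte libraries. In Nlrp14 and Nlrp4b the oocyte libraries were closer together, and these genes lay at 8.25, 8.36 and 8.43 and at 6.63, 6.69 and 6.63 in oocytes, against 1.43, 1.04 and 1.69 and 0.76, 0.55 and 0.66 in cumulus cells.

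Maternal chromatin factors followed, with 15 of 19 tested genes (23 listed) called higher in oocytes and none higher in cumulus cells (median difference 3.94). Npm2, the nucleoplasmin that remodels sperm chromatin, lay at 7.66, 7.64 and 7.33 in oocytes and 1.29, 1.44 and 1.25 in cumulus cells. H1foo, the linker histone of oocytes, lay at 10.43, 10.52 and 10.71 in oocytes and 2.87, 3.25 and 3.62 in cumulus cells. Dnmt1, the maintenance DNA methyltransferase, had 5.36 ± 0.18 in oocytes and 1.44 ± 0.27 in cumulus cells, and its partner Uhrf1 had 6.21 ± 0.1996 in oocytes and 1.19 ± 0.31 in cumulus cells. Tet3, the dioxygenase that oxidizes methylcytosine in the zygote, had 6.02 ± 0.061 in oocytes and 2.07 ± 0.13 in cumulus cells. Ezh2 and Eed, subunits of the Polycomb complex that methylates histone H3, were both called higher in oocytes, with differences of 4.34 and 2.29. Trim28, the corepressor that works with ZFP57 at imprints, was not called (4.39 ± 0.024 in oocytes and 4.22 ± 0.25 in cumulus cells), whereas Zfp57 itself was (6.39 ± 0.26 in oocytes and 0.397 ± 0.11 in cumulus cells).

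The tested genes for mRNA storage, translation and decay numbered 22 of 29 listed, and 14 were called higher in oocytes against 2 higher in cumulus cells. Zar1, an RNA-binding protein that holds maternal transcripts in store, lay at 9.03, 8.99 and 9.58 in oocytes and 1.74, 1.78 and 1.78 in cumulus cells. Cpeb1, which lengthens poly(A) tails when meiosis resumes, lay at 6.4, 6.51 and 6.48 in oocytes and 0.43, 0.32 and 0.61 in cumulus cells. Dazl, a germ-cell activator of translation, lay at 10.05, 10.04 and 9.75 in oocytes and 2.11, 2.12 and 2.59 in cumulus cells. Dcp1a, a decapping cofactor, had 7.24 ± 0.08 in oocytes and 1.84 ± 0.104 in cumulus cells, and Cnot6l, a deadenylase, had 7.59 ± 0.396 in oocytes and 3.54 ± 0.26 in cumulus cells. The genes with the opposite direction were Zfp36l2, which binds AU-rich elements and destabilizes mRNA, and Tob1, an antiproliferative partner of the deadenylase complex. Zfp36l2 lay at 1.62, 1.37 and 1.64 in oocytes and 4.71, 5.02 and 4.95 in cumulus cells, and Tob1 at 1.62, 2.21 and 2.46 in oocytes and 5.69, 5.99 and 5.62 in cumulus cells. Its paralog Tob2 went toward oocytes, at 5.23, 5.38 and 5.67 in oocytes and 1.51, 1.5 and 1.62 in cumulus cells. For small RNA and transposon control, 5 of 7 tested genes (21 listed) were called higher in oocytes and none higher in cumulus cells. Only 1 of the 7 had a mean level of at least 2 in both cell types, and it was not called. Dicer1, which cuts the small interfering RNAs that mouse oocytes need, lay at 4.08, 3.34 and 3.84 in oocytes and 0.64, 0.796 and 1.07 in cumulus cells.

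Genes of M phase and meiosis also leaned to the oocyte. Of 36 tested M-phase genes (42 listed), 24 were called higher in oocytes and 1 higher in cumulus cells. Wee2, the oocyte kinase that inhibits CDK1, lay at 8.04, 8.13 and 8.04 in oocytes and 0.76, 0.84 and 1.1 in cumulus cells, and Fbxo43, the inhibitor of the anaphase-promoting complex that keeps eggs in metaphase, at 6.1, 6.22 and 6.34 in oocytes and 0.199, 0.43 and 0.47 in cumulus cells. Ccnb1, cyclin B1, lay at 8.57, 8.95 and 8.62 in oocytes and 4.78, 4.93 and 4.94 in cumulus cells. Pttg1, securin, lay at 8.44, 8.41 and 8.52 in oocytes and 3.85, 3.61 and 3.6 in cumulus cells. Cdk1, the kinase that cyclin B1 activates, was the exception, at 0.78, 1.07 and 1.52 in oocytes and 3.08, 3.37 and 3.25 in cumulus cells (difference -2.11 ± 0.21, adjusted p = 0.00096). In the cohesin and recombination list 10 of 15 tested genes (28 listed) were called higher in oocytes and none higher in cumulus cells. Sycp2 and Sycp3, parts of the synaptonemal complex that pairs chromosomes in the fetal ovary, had 5.4 ± 0.089 and 4.57 ± 0.039 in oocytes, against 0.14 ± 0.035 and 0.502 ± 0.41 in cumulus cells. Rec8, the meiotic cohesin, was listed at 0 in all 6 libraries, and Smc1b was below the filter with 2.6 ± 0.099 in oocytes.

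**Figure D3:**
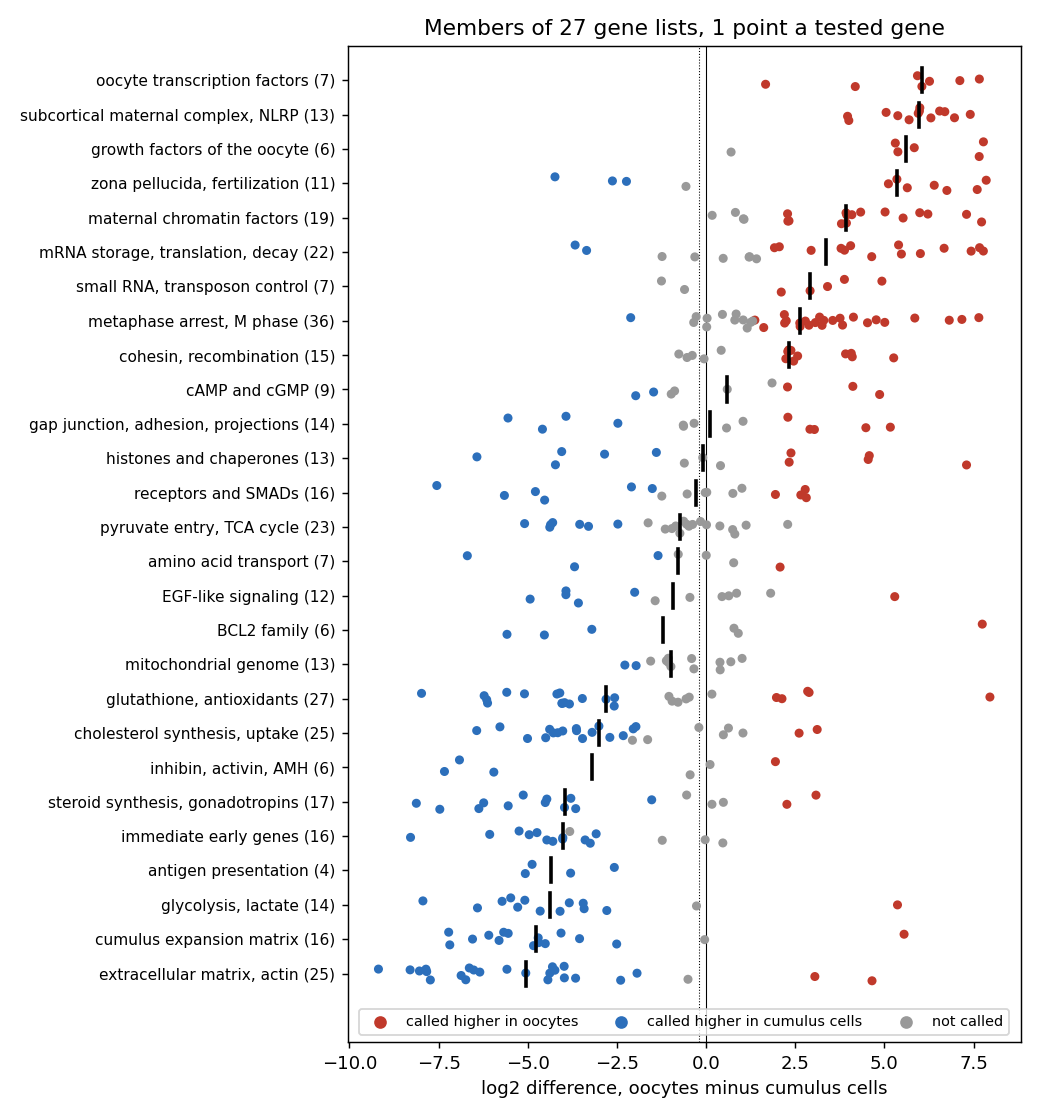
Difference in level, oocytes minus cumulus cells, for each tested member of 27 gene lists, with the number tested in brackets. Red points were called higher in oocytes, blue points higher in cumulus cells and gray points neither, the black bars are list medians, and the dotted line is the median of all tested genes at -0.19. Medians run from 6.05 for oocyte transcription factors to -5.05 for extracellular matrix and actin genes.

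Of 9 tested cyclic nucleotide genes (20 listed), 3 were called higher in oocytes and 2 higher in cumulus cells (33.3% and 22.2%, against a background of 28.3% and 34.7%). Pde3a, the phosphodiesterase whose inhibition by cyclic GMP holds meiotic arrest, lay at 5.07, 5.01 and 5.16 in oocytes and 0.26, 0.097 and 0.29 in cumulus cells. Gpr3, the receptor that keeps cyclic AMP high in the oocyte, lay at 4.23, 3.82 and 4.54 in oocytes and 0.077, 0 and 0.17 in cumulus cells. Npr2, the guanylyl cyclase of cumulus cells, was listed at 0 in every oocyte library and lay at 1.81, 1.59 and 1.93 in cumulus cells, and Impdh2, which supplies guanine nucleotides, lay at 0.13, 0.21 and 0.26 in oocytes and 3.82, 3.66 and 3.76 in cumulus cells. Both were below the filter. The catalytic subunit Prkaca was called higher in cumulus cells (3.005 ± 0.25 in oocytes and 4.47 ± 0.1004 in cumulus cells), a call that was lost under each of the 3 rescalings, and the regulatory subunit Prkar2a higher in oocytes (5.14 ± 0.069 in oocytes and 2.86 ± 0.18 in cumulus cells).

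In the gap junction, adhesion and projection list, 5 of 14 tested genes (21 listed) were called higher in oocytes and 4 higher in cumulus cells, which is 35.7% and 28.6% and near the same background. Gja4, connexin 37, which forms the channels on the oocyte, lay at 4.89, 4.66 and 5.38 in oocytes and 0.57, 0.61 and 0.31 in cumulus cells. Gja1, connexin 43, which couples cumulus cells to each other, lay at 0.1996, 0.18 and 0.27 in oocytes and 6.69, 6.73 and 0.99 in cumulus cells. Cumulus replicate 3 thus lacked most of the Gja1 signal that the other cumulus libraries had. The difference of -4.59 ± 1.44 (adjusted p = 0.038) became -6.49 without that library and was not called when oocyte replicate 1, 2 or 3 or cumulus replicate 1 or 2 was left out. In the 3 PM2.5 cumulus libraries Gja1 averaged 5.96. Cdh1, E-cadherin, lay at 5.8, 5.76 and 5.91 in oocytes and 1.01, 0.47 and 0.49 in cumulus cells. The ERM proteins that tie actin to the membrane were divided among the cells. Rdx, radixin, lay at 10.1, 10.02 and 9.87 in oocytes and 6.99, 7.12 and 7.14 in cumulus cells. Ezr, ezrin, lay at 1.48, 1.41 and 1.46 in oocytes and 7.07, 7.02 and 6.92 in cumulus cells, and Msn, moesin, at 0.29, 0.58 and 0.39 in oocytes and 4.4, 4.4 and 4.23 in cumulus cells. Daam1 and Myo10, a formin and a filopodial myosin linked to transzonal projections of granulosa cells, were called higher in oocytes, with 4.24 ± 0.093 and 4.28 ± 0.082 in oocytes against 1.2 ± 0.22 and 1.99 ± 0.14 in cumulus cells.

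Most called genes of the ovulatory response were higher in cumulus cells. In the EGF-like signaling list 5 of 12 tested genes (21 listed) were called higher in cumulus cells and 1 higher in oocytes. Those are 41.7% and 8.33%, against a background of 34.7% and 28.3%. Of the 12, 6 had a mean level of at least 2 in both cell types, and 1 of them was called, higher in cumulus cells. With the filter at 3, 1 of 7 was called in each direction, and the median difference was 0.64, against -0.94 as reported. The ligand Btc, betacellulin, lay at 0, 0 and 0.097 in oocytes and 4.79, 5.03 and 5.08 in cumulus cells. Areg, amphiregulin, was below the filter, listed at 0 in every oocyte library and at 4.21, 3.38 and 3.69 in cumulus cells. Ereg, epiregulin, was also below it, at 0, 0 and 0.059 in oocytes and 3.83, 3.74 and 3.89 in cumulus cells. Feedback inhibitors of the pathway were split, with Spry2 at 0.13, 0 and 0 in oocytes and 3.99, 3.95 and 3.97 in cumulus cells, and Spry4 at 5.59, 5.61 and 5.76 in oocytes and 0.34, 0.25 and 0.51 in cumulus cells. Of 16 tested genes of the expansion matrix (28 listed), 14 were called higher in cumulus cells and 1 higher in oocytes. Only 3 of the 16 had a mean level of at least 2 in both cell types, with 1 called in each direction. Ptgs2, cyclooxygenase 2, lay at 0.46, 0.28 and 0.33 in oocytes and 6.14, 6.69 and 6.51 in cumulus cells. Tnfaip6, which transfers heavy chains onto hyaluronan, lay at 0.34, 0.47 and 0.32 in oocytes and 7.86, 7.7 and 7.22 in cumulus cells. Vcan, versican, lay at 0.14, 0.093 and 0.15 in oocytes and 5.98, 5.65 and 5.77 in cumulus cells, and Ptx3, pentraxin 3, at 0.12, 0.13 and 0.044 in oocytes and 5.15, 5.5 and 4.15 in cumulus cells. Has2, the hyaluronan synthase of expansion, was low in cumulus cells at 0.89, 1.52 and 1.28 and was not tested. Runx1 lay at 0.039, 0.01 and 0.029 in oocytes and 4.7, 4.7 and 4.79 in cumulus cells. The exception was Plat, tissue plasminogen activator, at 8.34, 8.39 and 8.84 in oocytes and 3.17, 2.98 and 2.76 in cumulus cells, while Serpine2, an inhibitor of that protease, went toward cumulus cells at 5.85, 5.91 and 5.82 in oocytes and 8.49, 8.48 and 8.13 in cumulus cells.

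Called hormone genes were mostly higher in cumulus cells. The inhibin and activin list had 6 tested genes (10 listed). Of these, 3 were called higher in cumulus cells, Inha, Inhba and Fst, and 1 higher in oocytes, the inhibin co-receptor Tgfbr3. Only 2 of the 6 had a mean level of at least 2 in both cell types, and neither was called. Inhba, the activin beta A subunit, lay at 0.22, 0.25 and 0.26 in oocytes and 5.94, 6.29 and 6.35 in cumulus cells. Of 17 tested steroid and gonadotropin genes (30 listed), 12 were called higher in cumulus cells and 2 higher in oocytes. With a mean level of at least 2 in both cell types were 7 of the 17. Of these 7, 3 were called higher in cumulus cells and 1 higher in oocytes. Cyp11a1, the side-chain cleavage enzyme, lay at 0.11, 0.13 and 0.32 in oocytes and 6.7, 6.55 and 6.42 in cumulus cells, and its electron donor Fdx1, ferredoxin, at 4.05, 4.06 and 4.15 in oocytes and 10.43, 10.27 and 10.27 in cumulus cells. Star, which brings cholesterol into mitochondria, had 0.53 ± 0.17 in oocytes and 6.08 ± 0.24 in cumulus cells. Akr1c18, the enzyme that inactivates progesterone, lay at 0.46, 0.49 and 0.43 in oocytes and 7.8, 7.91 and 8.07 in cumulus cells. The genes called toward oocytes were Cyp19a1 and Esr2. Cyp19a1 lay at 4.02, 3.76 and 3.85 in oocytes and 2.31, 1.32 and 1.21 in cumulus cells, and Esr2, estrogen receptor beta, at 5.32, 5.35 and 5.5 in oocytes and 2.11, 2.28 and 2.52 in cumulus cells. Hsd17b1, which makes estradiol in granulosa cells, was below the filter, with 0.02 ± 0.035 in oocytes and 3.35 ± 0.046 in cumulus cells. The gonadotropin receptors were also low, with Lhcgr at 2.6, 1.75 and 2.22 and Fshr at 1.001, 1.14 and 0.88 in cumulus cells and both listed at 0 in all oocyte libraries.

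Genes of glycolysis were mostly higher in cumulus cells, while most tested genes of the TCA cycle were not called. In glycolysis and lactate handling, 12 of 14 tested genes (23 listed) were called higher in cumulus cells and 1 higher in oocytes, with a median difference of -4.37. Ldha, the lactate dehydrogenase subunit of glycolytic cells, lay at 0.59, 0.74 and 1.09 in oocytes and 8.97, 8.71 and 8.56 in cumulus cells. Ldhb, the subunit of tissues that use lactate, lay at 9.88, 9.78 and 10.8 in oocytes and 4.88, 4.45 and 5.03 in cumulus cells. Tpi1, triose phosphate isomerase, lay at 0.703, 0.92 and 1.217 in oocytes and 7.62, 7.14 and 7.31 in cumulus cells, Eno1, enolase, at 0.697, 0.64 and 0.92 in oocytes and 5.44, 5.37 and 5.39 in cumulus cells, and Pkm, pyruvate kinase, at 1.65, 1.91 and 2.19 in oocytes and 6.35, 5.98 and 5.71 in cumulus cells. Hk2, hexokinase, and Slc2a1, the glucose carrier, followed with 0.78 ± 0.064 and 2.15 ± 0.091 in oocytes against 4.19 ± 0.25 and 4.93 ± 0.199 in cumulus cells. In pyruvate entry and the TCA cycle 7 of 23 tested genes (29 listed) were called higher in cumulus cells, none higher in oocytes, and 16 were not called. All 7 had an oocyte mean below 2, and of the 16 with at least 2 in both cell types none was called. The call rate toward cumulus cells was thus 30.4% there, near the background of 34.7%. Subunits of the same enzyme could part. Idh3b and Idh3g, subunits of isocitrate dehydrogenase, had 0.15 ± 0.15 and 0.46 ± 0.076 in oocytes, against 4.45 ± 0.073 and 4.84 ± 0.14 in cumulus cells, while the catalytic subunit Idh3a had 4.9 ± 0.16 in oocytes and 3.78 ± 0.197 in cumulus cells and was not called as deposited, but was called higher in oocytes after median centring and with equal sums. Sdhb, the iron-sulfur subunit of succinate dehydrogenase, had 1.02 ± 0.35 in oocytes and 5.38 ± 0.15 in cumulus cells. Cs, citrate synthase, was not called (5.5 ± 0.098 in oocytes and 4.75 ± 0.036 in cumulus cells), though it was called higher in oocytes with equal sums, under which 2 genes of the list were called toward oocytes.

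Cholesterol synthesis followed glycolysis, with 17 of 25 tested genes (32 listed) called higher in cumulus cells and 2 higher in oocytes. Fdps, farnesyl diphosphate synthase, lay at 0.97, 0.74 and 0.73 in oocytes and 7.02, 7.33 and 7.38 in cumulus cells. Pmvk, phosphomevalonate kinase, lay at 0, 0.069 and 0.14 in oocytes and 6.02, 5.75 and 5.78 in cumulus cells, and Cyp51, lanosterol demethylase, at 1.47, 1.55 and 1.64 in oocytes and 6.64, 6.58 and 6.46 in cumulus cells. Hmgcs1, a synthase early in the pathway, was high in both cells and not called (7.54 ± 0.302 in oocytes and 6.5 ± 0.18 in cumulus cells), though it was called higher in oocytes after median centring and with equal sums. The genes called toward oocytes were Npc1, which releases cholesterol from lysosomes (5.43 ± 0.065 in oocytes and 2.32 ± 0.05 in cumulus cells), and Insig1, which retains the sterol sensor SCAP (6.78 ± 0.101 in oocytes and 4.17 ± 0.29 in cumulus cells). Npc2, the soluble partner of NPC1, went toward cumulus cells (2.53 ± 0.15 in oocytes and 5.72 ± 0.094 in cumulus cells). Among amino acid carriers 3 of 7 tested genes (18 listed) were called higher in cumulus cells and 1 higher in oocytes. Slc38a2, a carrier of neutral amino acids, lay at 0.16, 0.25 and 0.37 in oocytes and 6.94, 6.93 and 6.99 in cumulus cells. Slc7a11, which imports cystine, lay at 4.72, 4.66 and 4.92 in oocytes and 2.63, 2.64 and 2.8 in cumulus cells. Slc38a3, a carrier that cumulus cells express under the oocyte's influence in mice, was listed at 0 in all 3 oocyte libraries and at 0, 0 and 0.094 in cumulus cells.

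Of 27 tested genes for glutathione and antioxidant defense (35 listed), 16 were called higher in cumulus cells and 5 higher in oocytes. Mgst1, a microsomal glutathione transferase, lay at 1.28, 1.75 and 2.38 in oocytes and 9.79, 9.62 and 9.93 in cumulus cells. Gsr, glutathione reductase, lay at 0.94, 0.598 and 1.06 in oocytes and 7.18, 7.01 and 7.08 in cumulus cells, and Gpx4, which reduces lipid peroxides, at 1.17, 0.94 and 1.95 in oocytes and 7.67, 7.44 and 7.39 in cumulus cells. Sod1, cytosolic superoxide dismutase, had 5.37 ± 0.15 in oocytes and 9.34 ± 0.18 in cumulus cells. The thioredoxin system was split within itself. Txn1, thioredoxin, had 4.71 ± 0.28 in oocytes and 8.89 ± 0.18 in cumulus cells. Its reductase Txnrd1 had 3.88 ± 0.058 in oocytes and 0.99 ± 0.075 in cumulus cells, and Txnip had the difference toward oocytes given above. Prdx2, a peroxiredoxin, was not called (6.75 ± 0.11 in oocytes and 7.31 ± 0.072 in cumulus cells), whereas Prdx4, the peroxiredoxin of the endoplasmic reticulum, was called (0.36 ± 0.074 in oocytes and 6.48 ± 0.077 in cumulus cells).

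Of 6 tested BCL2 family genes (17 listed), 1 was called higher in oocytes and 3 higher in cumulus cells. Bcl2l10 lay at 11.16, 11.23 and 11.33 in oocytes and 3.2, 3.71 and 3.58 in cumulus cells. Mcl1, a short-lived survival protein, lay at 1.14, 0.82 and 1.47 in oocytes and 6.79, 6.65 and 6.73 in cumulus cells. The effector Bax lay at 0.57, 0.83 and 0.15 in oocytes and 3.99, 3.67 and 3.5 in cumulus cells, and Bok at 0 in every oocyte library and 4.99, 4.87 and 3.73 in cumulus cells. All 4 tested genes of antigen presentation (17 listed) were called higher in cumulus cells, among them B2m, the light chain of class I molecules, at 3.72, 4.68 and 4.35 in oocytes and 9.31, 9.18 and 8.88 in cumulus cells. Histones and their chaperones were even, with 5 of 13 tested genes (21 listed) called in each direction. H2afz, the variant H2A.Z, lay at 3.51, 3.07 and 3.11 in oocytes and 9.68, 9.61 and 9.68 in cumulus cells. Slbp, which binds the stem-loop of replication-dependent histone mRNA, lay at 7.08, 7.25 and 7.06 in oocytes and 2.77, 2.54 and 2.43 in cumulus cells. Of the 13 protein-coding genes of mitochondrial DNA 2 were called, mt-Co3 and mt-Nd6, both higher in cumulus cells, and neither was called after quantile normalization. The mitochondrial share of the summed level was 11.4%, 14.2% and 15.97% in oocytes and 13.0%, 16.9% and 20.4% in cumulus cells, which overlap.

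Cytoskeletal and matrix genes gave the most negative median of the 27 lists plotted, -5.05, with 22 of 25 tested genes (35 listed) called higher in cumulus cells and 2 higher in oocytes. Vim, vimentin, lay at 0.85, 0.72 and 0.86 in oocytes and 8.95, 8.75 and 8.84 in cumulus cells. Actb, beta-actin, lay at 2.87, 2.85 and 2.81 in oocytes and 8.58, 8.43 and 8.26 in cumulus cells, and Actg1, gamma-actin, at 4.49, 4.09 and 4.87 in oocytes and 11.32, 11.3 and 11.43 in cumulus cells. Krt18, a keratin of simple epithelia, was listed at 0 in all oocyte libraries and lay at 4.45, 4.29 and 4.4 in cumulus cells. The exceptions were Itga6, integrin alpha 6 (5.75 ± 0.18 in oocytes and 1.1 ± 0.22 in cumulus cells), and Lamb1, a laminin chain (7.5 ± 0.088 in oocytes and 4.45 ± 0.099 in cumulus cells). Immediate early genes, which respond within minutes to a stimulus and also to dissociation of tissue, were called higher in cumulus cells for 12 of 16 tested members (22 listed) and higher in oocytes for none. Junb lay at 0.46, 0.59 and 1.37 in oocytes and 6.97, 6.79 and 6.86 in cumulus cells, and Fosl2 at 0.065, 0.061 and 0.055 in oocytes and 4.51, 4.36 and 4.19 in cumulus cells. Fos itself was uneven among the cumulus libraries, at 0.13, 0.7999 and 0.66 in oocytes and 6.18, 0.82 and 6.06 in cumulus cells, and was not called. Without cumulus replicate 2 its difference was -5.59 and was called.

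Several gene families, chosen for display after their values had been seen, had most or all of their called genes on 1 side. All 47 tested genes of the large cytosolic ribosomal subunit were called higher in cumulus cells, with a median difference of -5.61, and 31 of 33 of the small subunit, with a median of -6.25. Together they made up 0.293%, 0.322% and 0.449% of the summed level in the oocyte libraries and 10.1%, 8.93% and 8.26% in the cumulus libraries. Rpl23a lay at 2.25, 2.22 and 2.62 in oocytes and 10.89, 10.6 and 10.52 in cumulus cells. The small-subunit gene called toward oocytes was Rps4l, at 3.7, 3.63 and 4.74 in oocytes and 2.56, 2.12 and 2.06 in cumulus cells, and its call was lost without oocyte replicate 3, cumulus replicate 2 or cumulus replicate 3. Nuclear genes of respiratory complex I followed with 30 of 33 higher in cumulus cells, and of the mitochondrial ribosome with 37 of 61, none of either family being called higher in oocytes. On the other side stood families expanded in the mouse germline, with 4 of 4 Obox genes, 10 of 10 Nlrp genes, 6 of 6 Tcl1 genes, 4 of 4 Oog genes and 13 of 17 Fbxw genes called higher in oocytes. Of the other Fbxw genes 3 were not called, and Fbxw8 was called higher in cumulus cells (1.34 ± 0.43 in oocytes and 3.18 ± 0.13 in cumulus cells), a call lost after quantile normalization and with equal sums. Near-identical copies in these families and in ribosomal pseudogenes can exchange reads, so the values of single members are uncertain.

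**Figure D4:**
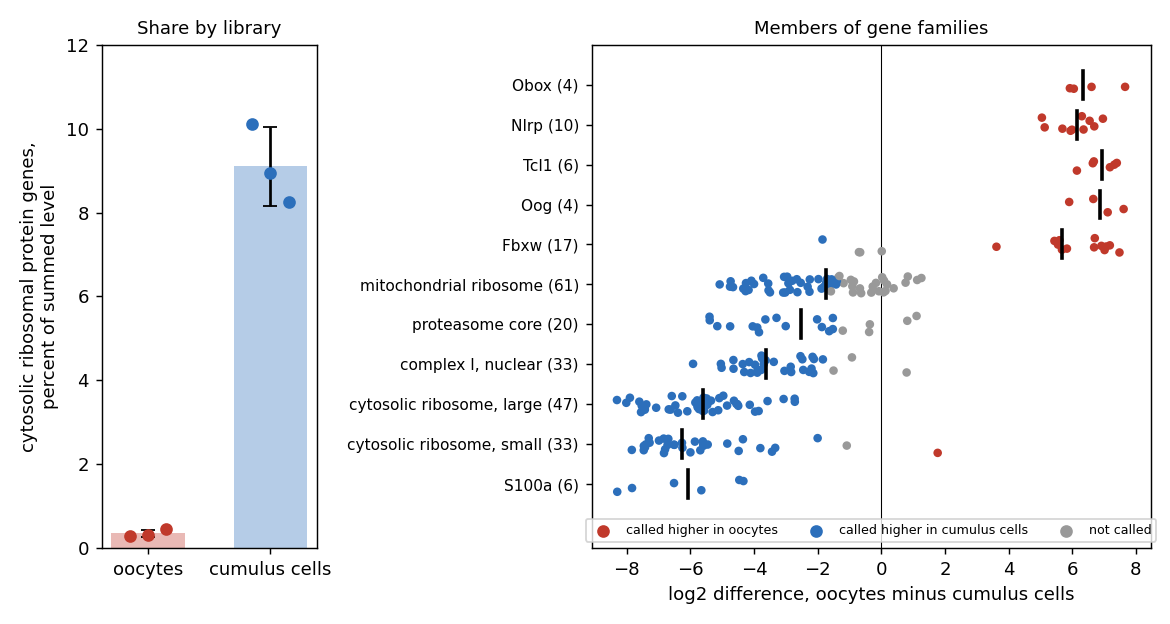
Left, share of the summed level held by cytosolic ribosomal protein genes in each library (points), with the mean (bar) and SD (error bar, n = 3 each) for oocytes and cumulus cells. Right, difference in level, oocytes minus cumulus cells, for each tested member of 11 gene families, with the number tested in brackets, the median as a black bar and calls in color. The 3 oocyte libraries hold 0.293% to 0.449% and the 3 cumulus libraries 8.26% to 10.1%.

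Pairs of paralogs or partners were called on opposite sides in a minority of cases. Of 35 pairs with both genes in the table, 6 had one gene called higher in oocytes and the other higher in cumulus cells. These were Gja4 with Gja1, Ldhb with Ldha, Pabpc1l with Pabpc1, H1foo with H1f0, Btg4 with Btg2 and Gdf9 with Inhba. A pair with an untested gene could not be counted among the 6, whatever its levels, so this number also depends on the filter. Besides the losses given above, the Gja1 call was lost with no filter on the mean and with a pseudocount of 5. Pabpc1l, the poly(A)-binding protein of oocytes, lay at 3.95, 3.37 and 4.67 in oocytes and 0.203, 0.39 and 0.046 in cumulus cells, while Pabpc1, the somatic form, lay at 3.18, 3.05 and 3.32 in oocytes and 9.54, 9.8 and 10.09 in cumulus cells. Btg2, an antiproliferative gene of somatic cells, lay at 2.46, 2.6 and 3.01 in oocytes and 5.97, 5.63 and 5.72 in cumulus cells. H1f0, a linker histone of differentiated cells, lay at 3.31, 3.58 and 3.31 in oocytes and 5.03, 4.84 and 4.51 in cumulus cells, and its call (adjusted p = 0.04) was lost under each rescaling and when oocyte replicate 1 or 3 or cumulus replicate 1 or 2 was left out. In 6 other pairs the first gene was called higher in oocytes and its relative was tested and not called. Aurkc, the Aurora kinase of meiosis, lay at 7.74, 7.69 and 7.74 in oocytes and 0.37, 1.09 and 1.24 in cumulus cells, against 4.19, 4.18 and 4.19 in oocytes and 2.53, 3.22 and 2.88 in cumulus cells for Aurkb, which was called higher in oocytes under each rescaling and without cumulus replicate 2. Kpna7 with Kpna2, importin alpha genes, and Uchl1 with Uchl3, ubiquitin hydrolases, were called higher in oocytes for both members, though Uchl1 was not called with all 18 libraries in 1 fit. For Zfp36l2 with Zfp36 both members were called higher in cumulus cells. In 8 pairs the first gene was called higher in oocytes and the other was not tested. In 3 the first was not tested and the other was called higher in cumulus cells. In 5 the first was not tested and the other not called. In 2 neither gene was tested, and in 1 the first was not called and the other not tested. In 1 pair the gene listed on the cumulus side was called higher in oocytes. It was Dnmt3b (difference 2.29), while the first gene, Dnmt3a, was not called (1.05).

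**Figure D5:**
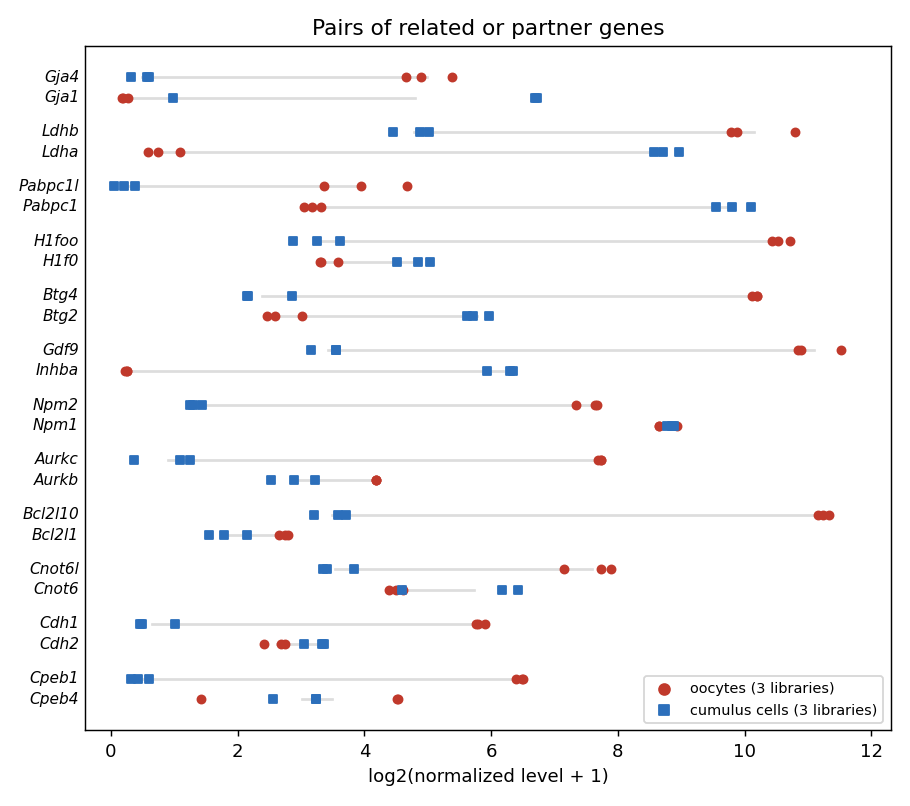
Level in each library, log2(normalized level + 1), for 12 of the pairs, with the gene listed on the oocyte side above its relative. Red circles are the 3 oocyte libraries and blue squares the 3 cumulus libraries. The upper 6 pairs change sides, with Ldhb at 9.78 to 10.80 and Ldha at 0.59 to 1.09 in oocytes against 4.45 to 5.03 and 8.56 to 8.97 in cumulus cells, and 1 cumulus library is low for Gja1.

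Oocyte transcripts were present at low fractions in the cumulus libraries. On the unlogged scale the mean cumulus level of the 13 tested oocyte markers was 0.177% to 2.23% of the oocyte level, with a median of 0.393%. The fractions were 0.442% for Gdf9, 0.393% for Oosp1, 0.367% for Bmp15 and 0.347% for Mos. For 42 protein-coding genes called higher in oocytes with an oocyte level of at least 9, the cumulus level was at least 0.258% of the oocyte level, and it was under 1% for 24 of them. In the reverse direction, 55 cumulus-called genes with a cumulus level of at least 9 had oocyte levels of at least 0.113% of the cumulus level, under 1% for 29. Values near these fractions include 3.43 for Gdf9 in cumulus cells and 5.01 for Spp1 in oocytes. Whether they are expression of the cell named or come from the other cell type was not tested.

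Among markers of other cells, those of leukocytes leaned to the cumulus libraries, and those of erythrocytes did not move as 1 set. The summed level of 15 leukocyte markers was 0.497 to 2.10 in oocytes and 102 to 166 in cumulus cells, led by Lyz2 at 6.19, 5.75 and 5.02 and Cd52 at 4.96, 4.62 and 4.56 in cumulus cells. With the filter at a mean level of at least 1, 8 of the 15 were tested. Of these 8, 6 were called higher in cumulus cells and none higher in oocytes. Ptprc, by contrast, reached at most 0.28, Cd3e was listed at 0 in all 6 libraries and Cd79a was above 0 in 1 library. Spp1 and B2m are also expressed by macrophages, and the part of leukocytes in their values was not tested. Of 5 tested erythrocyte markers only Bpgm was called, higher in oocytes, and its levels are given at the end of the report. The other 4 were hemoglobin genes. Hemoglobin genes stood high in cumulus replicates 1 and 3 and low in replicate 2. For Hbb-bs the levels were 0.1002, 0.43 and 0.39 in oocytes and 6.55, 0.85 and 8.63 in cumulus cells, and none of the 4 tested hemoglobin genes was called, though all 4 were called higher in cumulus cells without cumulus replicate 2 and with all 18 libraries in 1 fit, and 3 with a pseudocount of 0.1. Leaving out both cumulus replicates high in hemoglobin kept 3867 of the 4251 calls and reversed none. Markers of stroma, endothelium and oviduct had no tested member, and their summed levels were 6.31 to 8.25, 7.01 to 10.3 and 0.673 to 1.24 in oocytes, against 3.08 to 3.69, 5.83 to 7.63 and 0.959 to 1.21 in cumulus cells.

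Differences varied with transcript length. The median difference was -1.12 for 2253 tested genes with transcripts under 1000 bases and 0.76 for 655 genes over 4000 bases. Over 6455 genes, which are not independent replicates, Spearman's rho between length and difference was 0.233. Pseudogenes were called toward cumulus cells more often than toward oocytes, with 53 of 426 higher in oocytes and 270 of 426 higher in cumulus cells. With each library's length trend removed, 3524 of 4016 calls among genes with a length were kept and none changed sign. On the X chromosome 24.7% of 239 tested genes were called higher in oocytes and 43.1% higher in cumulus cells, against 27.99% and 34.7% on the autosomes.

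The same comparison was made in the mice exposed to PM2.5, whose libraries share no sample with those in filtered air. There 4335 of the 6745 genes were called (64.3%), 1940 higher in oocytes (28.8%) and 2395 higher in cumulus cells (35.5%). At any size limma called 5862 genes there (86.9%), 2765 higher in oocytes (41.0%) and 3097 higher in cumulus cells (45.9%). Beyond 2-fold both comparisons called 4033 genes in the same direction and 0 in opposite directions, which is 94.9% of the filtered-air calls and 93.0% of the PM2.5 calls. For Gdf9 the PM2.5 libraries averaged 11.26 in oocytes and 3.88 in cumulus cells, and for Spp1 5.42 in oocytes and 14.32 in cumulus cells. Ldhb averaged 9.62 in PM2.5 oocytes and 5.12 in PM2.5 cumulus cells, and Ldha 0.95 in oocytes and 9.22 in cumulus cells. The test of whether the difference between the cells itself differed between the air groups called 10 of 6745 genes (0.148%) at an adjusted p under 0.05, with 964 at an unadjusted p under 0.05.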

How the data were processed

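RNA of oocytes and cumulus cells was measured by RNA-seq of amplified cDNA. Per the labels' protocols, lysed cells were reverse transcribed directly, the cDNA was tailed and amplified, and paired-end reads were made, which can favor some transcript lengths. The deposited values are log2 of a normalized level plus 1 for 52550 genes in 18 libraries, and the submitters' processing notes name FastQC, Cuffnorm, DESeq 1.22.1 and mm10, without their order. Counts and depth were not used here. Genes with a mean level of at least 2 over the 6 libraries and above 0 in at least 3 were tested with limma 3.58.1 in R 4.3.3, as the difference between cell types with a mean-variance trend, and beyond 2-fold with treat. All p-values are Benjamini-Hochberg adjusted over all tested genes. The scripts for this were tested on simulated data. Alternatives varied the filter, pseudocount (0.1 and 5), scaling, variance model, libraries and a replicate block. The members, lists and tests were chosen with earlier results of these data known, and gene families were chosen after their values had been seen. Named genes were the 12 largest differences in each direction, and per list up to 6 called members per direction with the smallest p, called members against the list's majority, and untested members. Members named beyond this were chosen after their values were seen. Promoter sequences came from RefSeq (GRCm38.p6). Transcript lengths were the median exonic length per gene in a GENCODE annotation of an older mouse assembly.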

Additional observations from a re-analysis of the deposited data

Results flagged for a closer look

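For 10 of 6745 genes the oocyte minus cumulus difference differed between mice in filtered air and mice exposed to PM2.5, by the interaction term of limma at an adjusted p under 0.05. The value given for each gene is the difference in filtered air minus that in PM2.5, ± SE, with 3 libraries per cell type and air group. In Tceal8, a member of a transcription elongation factor-like family, it was -3.33 ± 0.55 (adjusted p = 0.046). In filtered air Tceal8 averaged 0.496 in oocytes and 6.18 in cumulus cells, and in PM2.5 3.98 in oocytes and 6.34 in cumulus cells. In Gm20052, a long noncoding RNA, it was 2.52 ± 0.18 (adjusted p = 7.2e-05), with oocyte means of 5.01 in filtered air and 2.6 in PM2.5. A further noncoding RNA, Gm29999, had 1.5 ± 0.17 (adjusted p = 0.0046), with oocyte means of 4.83 in filtered air and 3.45 in PM2.5. For Plaa, named phospholipase A2 activating protein, the value was -2.13 ± 0.18 (adjusted p = 0.00033), with cumulus means of 4.94 in filtered air and 2.91 in PM2.5. For Nectin3, an adhesion molecule, it was -1.49 ± 0.24 (adjusted p = 0.044), with cumulus means of 3.63 in filtered air and 2.23 in PM2.5. Gcsh, a subunit of the glycine cleavage system, had 1.47 ± 0.201 (adjusted p = 0.019), with cumulus means of 5.83 in filtered air and 6.91 in PM2.5. The mitochondrial ribosomal genes Mrpl9 and Mrpl1 had -1.09 ± 0.16 and -1.21 ± 0.195 (adjusted p = 0.04 and 0.044). Exoc2, a subunit of the exocyst, had 1.36 ± 0.22, and the pseudogene Gm15542 0.99 ± 0.16 (adjusted p = 0.044 and 0.046). In 7 of the 10 genes the call came at an adjusted p above 0.01, close to the threshold.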

How the results depend on the processing

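With the filter at a mean level of at least 1, 3912 genes were called beyond 2-fold toward cumulus cells and 5249 at any size, and 6284 calls were shared with PM2.5. With the filter at 3, 1214 genes toward oocytes and 1224 toward cumulus cells were called beyond 2-fold, 1789 and 1713 at any size, and 2317 were shared with PM2.5. With no filter on the mean the counts were 3012 and 4238 beyond 2-fold, 6038 and 7974 at any size, and 6576 shared. The test of the difference between air groups called 24 genes with the filter at 1 and 42 with no filter. These settings change how many genes are tested. Leaving out 1 library at a time gave 1858 to 1887 calls beyond 2-fold toward oocytes and 2276 to 2389 toward cumulus cells, 2707 to 2745 and 3012 to 3115 at any size, and 3957 to 4037 calls shared with PM2.5. None of the calls that an alternative retested changed sign. All 4251 were retested in every alternative except the filter at 3 (2445) and the removed length trend (4016). Equal sums outside mitochondrial and hemoglobin genes moved the share of calls higher in oocytes to 53.9%, against 45.0% as reported. Whether same-numbered oocyte and cumulus libraries form pairs is not stated. After each cell type's gene means were subtracted, same-numbered libraries correlated at -0.0669, -0.0339 and -0.0444. With 3 libraries per cell type these values cannot decide it. A fit with the replicate number as a block kept 4185 of the 4251 calls and called 2 of the 4 hemoglobin genes. The calls for Cdk1, Smad5, Taf4b and Tgfbr3 were lost with a pseudocount of 5, those for Cdk1, Taf4b and Slc7a11 with the length trend removed, that for Uchl1 with all 18 libraries in 1 fit, and that for Fetub without the cumulus libraries high in hemoglobin. The cause was not tested. In the list of cyclic nucleotide genes, calls were 4 toward oocytes and 5 toward cumulus cells with the filter at 1. Removing the length trend and leaving out both cumulus libraries high in hemoglobin were chosen after seeing the data. Values near the filter are limited by unknown read depth.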

Other observations

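Further families, chosen after their values had been seen, had most or all of their called genes on 1 side. All 4 tested Oas1 genes, relatives of the interferon-induced oligoadenylate synthetase, were called higher in oocytes, with a summed level of 1021 to 1266 in oocytes and 5.04 to 7.65 in cumulus cells. All 3 Khdc1 genes were called higher in oocytes, with 1422 to 1508 in oocytes and 5.14 to 7.07 in cumulus cells. All 6 tested S100a genes, calcium-binding proteins, were called higher in cumulus cells, with 8.73 to 14.5 in oocytes and 1161 to 1439 in cumulus cells. Of 20 tested proteasome core genes 15 were called higher in cumulus cells, none higher in oocytes and 5 not called. Of 6 tested annexins 5 were called higher in cumulus cells and 1 higher in oocytes. Bpgm, which makes the allosteric effector of hemoglobin in red cells and served here as an erythrocyte marker, had levels of 7.95, 8.01 and 8.20 in oocytes and 1.57, 1.21 and 1.47 in cumulus cells. It thus moved opposite to the hemoglobin genes.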
